A study of Mus musculus with 6 samples.

Results

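The genes described here are 31 neuronal and synaptic genes, taken as the rows of the count table whose Ensembl identifiers carry the listed symbols, 31 of 55401 rows in all. They were measured by RNA sequencing in CD11b-selected cells from the brains of 3 MRL/lpr and 3 MRL/mpj preparations, all labelled as untreated and 6 weeks old. The MRL/lpr strain bears lpr, a mutation of Fas, and develops lupus-like autoimmunity, and MRL/mpj mice are the background strain without that mutation. The methods describe perfused mice, minced brain tissue, enzymatic digestion, a Percoll gradient and magnetic selection for CD11b, an integrin carried by microglia and further myeloid cells. They describe female mice, and the sex of the sequenced animals is not stated for these libraries. The paper gives the number of libraries as a number of mice, and p-values measure the spread between these libraries.

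Neurons pass signals at synapses, where vesicles loaded with transmitter fuse with the presynaptic membrane through the SNARE proteins and receptors anchored to a postsynaptic scaffold receive the transmitter. Microglia, the resident macrophages of the brain, contact synapses and can engulf synaptic material. Most of these genes are known for their expression in neurons, while some, such as Vamp2, are made in many cell types. In bulk samples, fewer cells of a type and less RNA per cell cannot be told apart.

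The libraries held 45481609 to 49846634 counts, and a count of 0 allows a level of up to 0.0602 to 0.066 CPM (counts scaled to library size and the TMM factors of edgeR). Counts piled up at multiples of 4, with 1138 to 1288 genes at 4 counts per library against 320 to 415 at 3, and how reads were turned into counts is not given in the sources used here. Some genes stood apart by library or strain. Xist, which silences an X chromosome in female cells, ran from 8886 to 11319 counts in MRL/lpr and from 27 to 38 in MRL/mpj. The Y-linked genes Ddx3y, Eif2s3y, Kdm5d and Uty had between 924 and 7559 counts in every library, which goes against a preparation from female animals alone. The sex makeup of the libraries, as far as these genes show it, therefore differed with the strain and cannot be told apart from it for any result below. Of the 31 genes, 2 lie on chromosome X, Syn1 and Syp. Cx3cr1, a microglial receptor, reached 132706 counts in MRL/lpr replicate 2, and had 10645 and 10334 in replicates 1 and 3, and 6.38% of all counts in MRL/lpr replicate 3 fell on the gene CT010467.1, against at most 0.457% elsewhere. For Fas itself the counts were 461, 282 and 298 in MRL/lpr and 426, 432 and 362 in MRL/mpj, which do not separate mutant from intact transcripts. Genes of the mitochondrial genome held 3.28%, 3.49% and 3.06% of all counts in MRL/lpr and 5.84%, 5.97% and 6.38% in MRL/mpj. The TMM factors were 0.92 to 0.978 in MRL/lpr and 1.04 to 1.05 in MRL/mpj. Both differed with the strain and cannot be told apart from it, and their part in the results below was not tested. Xist, the Y-linked genes, Cx3cr1, CT010467.1, Fas and the mitochondrial genes were chosen as checks of the libraries after their values were seen.

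The neuronal and synaptic genes were a very small part of these libraries. Their share of the counts was 0.0188% to 0.0204% in MRL/lpr and 0.024% to 0.0255% in MRL/mpj. On the authors' FPKM scale, which divides by gene length and so allows levels of different genes to be compared, the mean over the 6 libraries was under 1 for 24 of 31 genes. The median of the 31 mean levels was 0.262 FPKM, against 281 FPKM for 12 microglial markers, of which the lowest was at 52 FPKM. Vamp2 was the most abundant member at 17.2 FPKM, followed by Stx1a at 5.07, Rab3a at 3.28 and Dlg4 at 3.08 FPKM. Grin2b was the least abundant at 0.0183 FPKM. Markers of the labelled cell type were therefore high in every library, and none of the 12 was at 0.

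**Figure D1:**
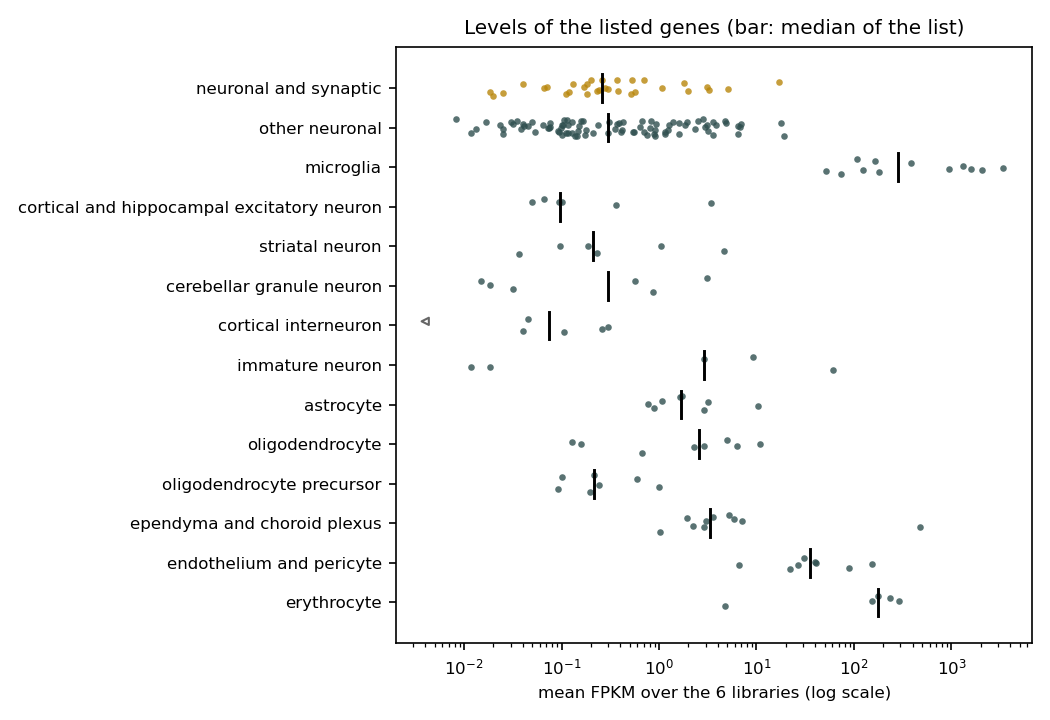
Mean FPKM over the 6 libraries (log axis) for each gene of the neuronal and synaptic list (gold), of a list of other neuronal genes and of 12 lists of cell type markers. Each point is a gene, the bar is the median of the list, an open triangle marks a gene under 0.005 FPKM, and the gene without an FPKM value is not drawn. The neuronal and synaptic genes lie mostly under 1 FPKM, and the microglial markers all lie above 50 FPKM.

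All 31 genes passed the filter on low counts, and 7 were lower in MRL/lpr at an adjusted p-value under 0.05 (quasi-likelihood test of edgeR, Benjamini-Hochberg adjustment over the 19554 genes tested). They were Snap25, Syt1, Syn1, Dlg2, Camk2a, Gria2 and Grin1. None was higher by this test, 1 was higher and 13 were lower at an unadjusted p-value under 0.05 (against 16.3% and 15.5% of all genes tested), and DESeq2 also called 0 higher and 7 lower, 6 of them shared. Among all genes tested, edgeR called 9.06% lower and 11.1% higher, 20.2% in all, and DESeq2 called 8.77% lower and 10.2% higher. Of the 7 genes, 5 also passed the fold minimum, a log2 fold change of 1 in size, against 3.66% of all genes tested that were lower past it and 4.67% that were higher. The log2 fold change was below 0 in 26 of 31 genes, against 51% of all genes tested. Every MRL/lpr library lay below every MRL/mpj library in 15 of 31 genes and above in 1, against 19.4% and 19.6% of all genes tested. The median log2 fold change was -0.77 over the 31 genes and -0.01 over all genes tested, whose 5th and 95th percentiles were -1.29 and 1.44. The 15756 genes within the members' range of abundance, a comparison chosen after the values were seen, had a median of -0.03, and 9.21% of them were lower. That range held most of the 19554 genes tested, so it nearly repeats the comparison with all genes and does not match the members' low levels.

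The count of 7 depended on single libraries. It was 4, 3 and 5 when MRL/lpr replicate 1, 2 or 3 was left out, and 3, 4 and 2 when MRL/mpj replicate 1, 2 or 3 was. With MRL/lpr replicate 2 left out, 3 genes passed the fold minimum, and leaving out MRL/mpj replicate 1 or replicate 3 left 2. Snap25 and Syt1 were past the threshold in all 13 alternatives. The other 5 called genes had adjusted p-values between 0.0306 and 0.047 and were each lost under 4 or more alternatives. None of the genes that could be tested was called higher under any of them.

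**Figure D2:**
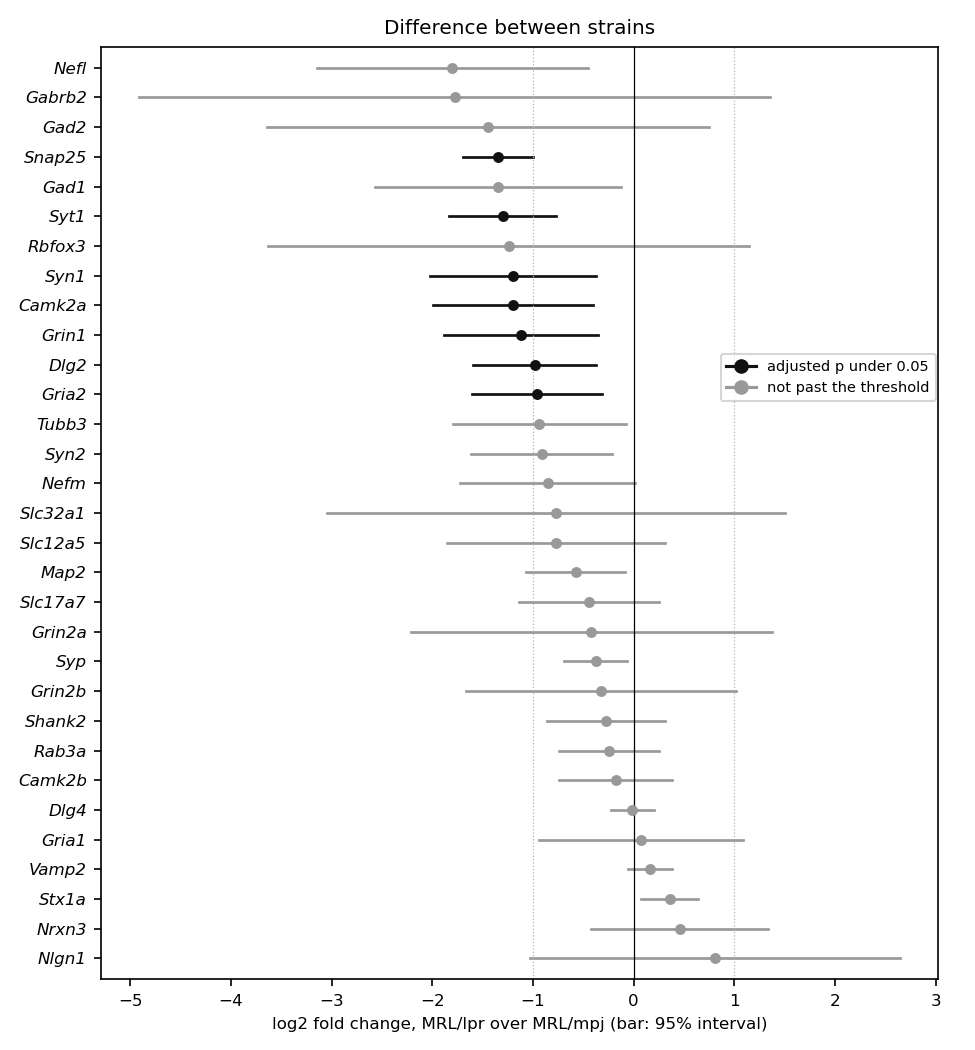
Log2 fold change of the 31 genes, MRL/lpr over MRL/mpj, with the 95% interval from edgeR's quasi-likelihood fit, sorted by size. Black points are the 7 genes with an adjusted p-value under 0.05, and dotted lines mark a log2 fold change of -1 and 1. The intervals of Vamp2, Dlg4, Stx1a and Syp are narrow and those of Gabrb2, Gad2 and Rbfox3 are wide.

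In the presynaptic release machinery, 3 of 8 genes were lower, against 9.06% of all genes tested. Among the 3 were Snap25 and Syt1, the members with the smallest adjusted p-values. Snap25 (ENSMUSG00000027273, GRCm38 chr2:136713453-136782428, plus strand) encodes a SNARE protein of the presynaptic membrane. It had 190, 221 and 198 counts in MRL/lpr replicates 1 to 3 and 552, 583 and 620 in MRL/mpj replicates 1 to 3. The groups were far apart and each was tight. Its level was 4.49 ± 0.39 CPM (SD, n = 3) in MRL/lpr and 11.4 ± 0.618 CPM (SD, n = 3) in MRL/mpj, a 2.55-fold difference (log2 fold change -1.35, standard error (SE) 0.15, edgeR adjusted p = 0.000261). Over the alternatives the adjusted p-value of Snap25 ran from 1.37e-10 to 0.00245. Syt1 (ENSMUSG00000035864, GRCm38 chr10:108497650-109010982, minus strand), the calcium sensor of vesicle fusion, had 80, 85 and 97 counts in MRL/lpr and 277, 215 and 242 in MRL/mpj. The highest MRL/lpr library was well under the lowest MRL/mpj library. The difference was 2.46-fold, with a 95% interval of 1.70 to 3.55 (log2 fold change -1.30, SE 0.24, edgeR adjusted p = 0.00392, 0.000134 to 0.0224 over the alternatives). Neither gene shares exon bases with another gene in GENCODE M21.

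Syn1 and Syn2 encode synapsins, which tether synaptic vesicles to the cytoskeleton. Syn1 (ENSMUSG00000037217, GRCm38 chrX:20860511-20921004, minus strand) had 40, 44 and 69 counts in MRL/lpr and 173, 98 and 133 in MRL/mpj. The groups did not overlap, but MRL/lpr replicate 3 and MRL/mpj replicate 2 came near each other. Its log2 fold change was -1.20 (SE 0.37, edgeR adjusted p = 0.047). The adjusted p was 0.135 and 0.131 without MRL/lpr replicates 1 and 2, and 0.173, 0.0553 and 0.106 without MRL/mpj replicates 1, 2 and 3. Syn2 had 67, 71 and 55 counts in MRL/lpr and 189, 109 and 112 in MRL/mpj, again without overlap, with a log2 fold change of -0.91 (SE 0.31, edgeR adjusted p = 0.0711).

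The remaining presynaptic genes differed little, and their order of levels was not the same in each. Vamp2, the SNARE protein of the vesicle itself, had 3383, 3963 and 3195 counts in MRL/lpr and 3279, 3869 and 3495 in MRL/mpj. The groups overlapped, with a log2 fold change of 0.16 (95% interval -0.06 to 0.38, edgeR adjusted p = 0.312), so the interval holds no change as large as that of Snap25. Stx1a, the SNARE partner of Snap25 and Vamp2, had 770, 763 and 792 counts in MRL/lpr and 622, 682 and 752 in MRL/mpj. It was the only member with every MRL/lpr library above every MRL/mpj library, and its log2 fold change of 0.36 (95% interval 0.08 to 0.64) did not pass the threshold, with an adjusted p of 0.0767 from edgeR. Syp, which encodes synaptophysin of the vesicle membrane, had 431, 490 and 451 counts against 598, 671 and 749, with a log2 fold change of -0.38 (95% interval -0.69 to -0.06, edgeR adjusted p = 0.0932). Its groups did not overlap. Rab3a, a small GTPase of synaptic vesicles, had 373, 270 and 371 counts against 373, 415 and 581, and the groups overlapped (log2 fold change -0.25, SE 0.22). With scaling by library size only, Syn2 and Syp also passed the threshold, at adjusted p-values of 0.0423 and 0.0289 from edgeR.

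**Figure D3:**
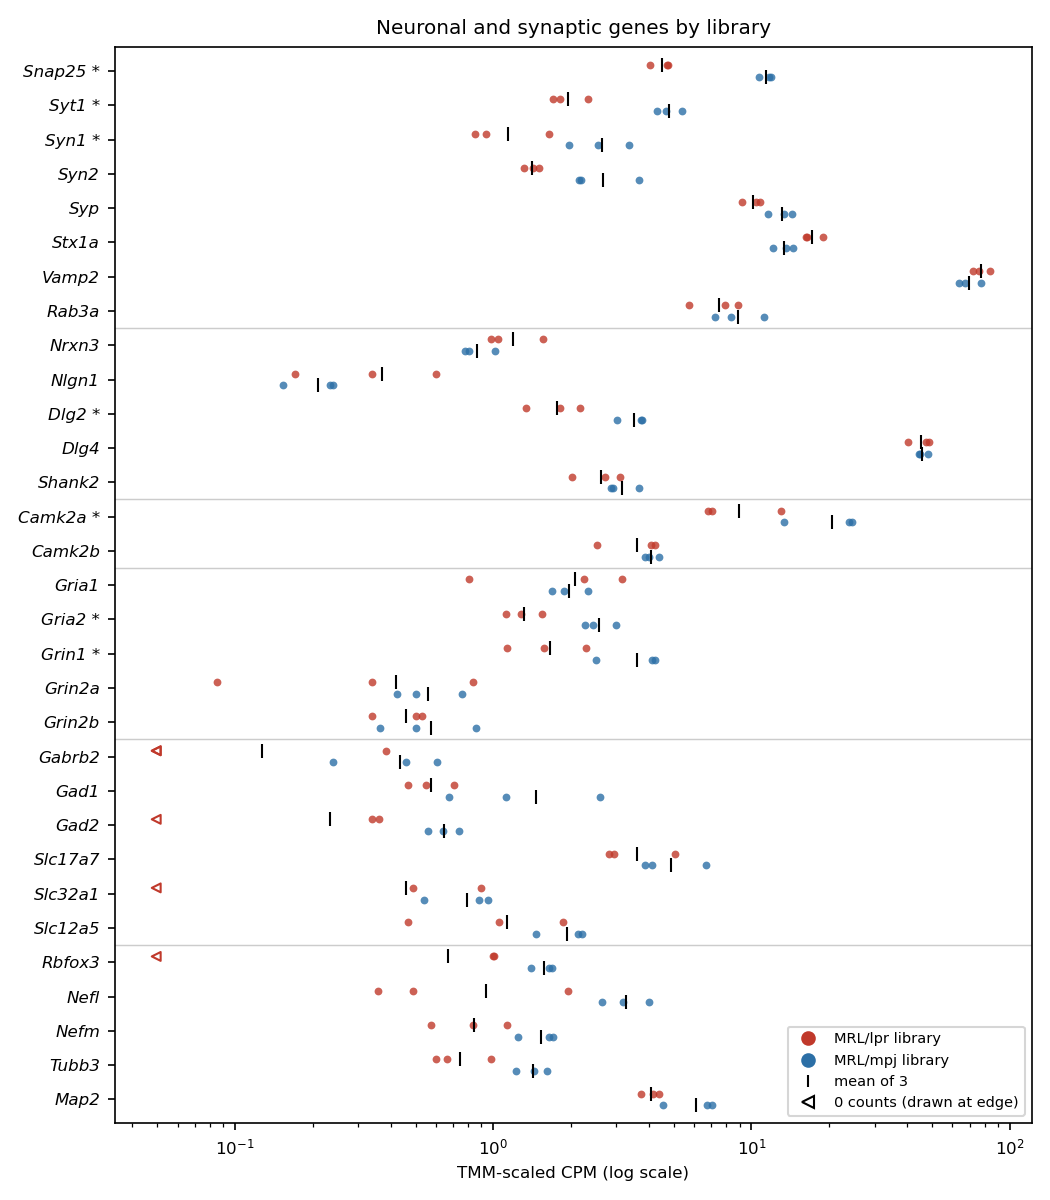
TMM-scaled CPM (log axis) of the 31 genes in each MRL/lpr (red) and MRL/mpj (blue) library, with the mean of 3 as a bar. Genes are grouped by role, asterisks mark the 7 genes called lower in MRL/lpr, and open triangles at the left edge mark libraries with 0 counts. In 15 genes the red points all lie left of the blue points.

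Of the 5 genes of synaptic adhesion and postsynaptic scaffolds, 1 was lower, against 9.06% of all genes tested. Dlg2 (ENSMUSG00000052572, GRCm38 chr7:90476672-92449247, plus strand), which encodes the scaffold protein PSD-93, had 102, 85 and 56 counts in MRL/lpr and 155, 189 and 194 in MRL/mpj. The groups did not overlap. Its log2 fold change was -0.98 (SE 0.27, edgeR adjusted p = 0.0306), and the adjusted p rose to 0.0742 and 0.0692 without MRL/lpr replicates 2 and 3 and to 0.053, 0.102 and 0.0964 without MRL/mpj replicates 1, 2 and 3. Dlg4, which encodes the related scaffold PSD-95, had 2231, 2289 and 1688 counts in MRL/lpr and 2298, 2243 and 2512 in MRL/mpj. The groups overlapped, and the log2 fold change was -0.01 with a 95% interval of -0.23 to 0.20 (edgeR adjusted p = 0.944). The Dlg4 value turned sign when replicate 3 of either strain was left out. The 2 paralogues were not tested against each other.

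Shank2, a scaffold that links receptor complexes to actin, had 95 to 130 counts in MRL/lpr and 149 to 184 in MRL/mpj, with a log2 fold change of -0.27 (SE 0.26). Its CPM values overlapped between the groups. Nrxn3, a presynaptic adhesion molecule, had 46 to 65 counts in MRL/lpr and 39 to 52 in MRL/mpj. Nlgn1, a postsynaptic partner of neurexins, had 8, 16 and 25 counts in MRL/lpr and 12, 12 and 8 in MRL/mpj. Both overlapped between the strains, with log2 fold changes of 0.46 (SE 0.39) for Nrxn3 and 0.81 (SE 0.81) for Nlgn1.

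Camk2a and Camk2b encode subunits of calcium/calmodulin kinase II, a kinase of the postsynaptic density. Camk2a had 613, 321 and 294 counts in MRL/lpr and 1264, 667 and 1238 in MRL/mpj. In CPM, MRL/lpr replicate 1 and MRL/mpj replicate 2 lay next to each other, and the groups touched without overlap. Camk2a had a log2 fold change of -1.20 (SE 0.33, edgeR adjusted p = 0.0465), and its adjusted p ran from 0.000156 with DESeq2 to 0.177 without MRL/lpr replicate 3. Leaving out MRL/lpr replicate 2 gave 0.136, leaving out MRL/mpj replicate 1 or 3 gave 0.112 and 0.117, and using no filter on low counts gave 0.118. Camk2b had 119, 199 and 171 counts against 207, 193 and 229, with a log2 fold change of -0.18 (95% interval -0.74 to 0.38), which changed sign without MRL/lpr replicate 1.

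Glutamate receptor subunits were lower in 2 of 5 cases, against 9.06% of all genes tested. Gria2 (ENSMUSG00000033981, GRCm38 chr3:80681450-80802835, minus strand), the AMPA receptor subunit that limits calcium entry, had 60, 73 and 47 counts in MRL/lpr and 117, 149 and 127 in MRL/mpj. The groups did not overlap, but the call was the least stable of the 7. Its log2 fold change was -0.96 (SE 0.29, edgeR adjusted p = 0.0431). The adjusted p of Gria2 was 0.0531 with DESeq2 and 0.0648 without a filter on low counts. Without each of MRL/lpr replicates 1 to 3 it was 0.106, 0.0564 and 0.0942, and without each of MRL/mpj replicates 1 to 3 it was 0.0763, 0.148 and 0.0921. Grin1 (ENSMUSG00000026959, GRCm38 chr2:25291181-25319187, minus strand), the obligatory NMDA receptor subunit, had 74, 53 and 96 counts in MRL/lpr and 212, 125 and 220 in MRL/mpj. The groups did not overlap, with a log2 fold change of -1.12 (SE 0.34, edgeR adjusted p = 0.0456). The Grin1 call was lost without MRL/lpr replicate 1 or 2, at adjusted p-values of 0.118 and 0.128, and without MRL/mpj replicate 1 or 3, at 0.142 and 0.148. Grin1 shares 13.5% of its exon bases with the opposite-strand gene Grin1os, and whether the counting used strand is not given in the sources used here.

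The other glutamate receptor genes were low or variable. Gria1, another AMPA receptor subunit, had 106, 38 and 132 counts in MRL/lpr and 97, 116 and 88 in MRL/mpj, so that MRL/lpr replicate 2 was the lowest and replicate 3 the highest of all 6. Its log2 fold change of 0.07 (95% interval -0.94 to 1.09) turned below 0 with scaling by library size and without MRL/lpr replicate 3 or MRL/mpj replicate 3. Grin2a and Grin2b, the regulatory NMDA receptor subunits, had at most 44 counts in any library and overlapped between the strains.

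None of the 6 genes of inhibitory transmission and transmitter or chloride transport passed the threshold, although all 6 had a log2 fold change below 0. Slc17a7, the vesicular glutamate transporter of cortical and hippocampal neurons, was the most abundant, with 138, 132 and 211 counts in MRL/lpr and 212, 332 and 202 in MRL/mpj. Its groups overlapped (log2 fold change -0.44, SE 0.31). Gad1, which makes GABA from glutamate, had 33, 22 and 23 counts against 133, 56 and 35, with a log2 fold change of -1.34 (95% interval -2.57 to -0.12, edgeR adjusted p = 0.121). For Gad1, MRL/mpj replicate 1 was far above the other MRL/mpj libraries, and MRL/lpr replicate 1 and MRL/mpj replicate 3 overlapped in CPM, at 0.702 and 0.673. Gad2, the other GABA-making enzyme, had 16, 17 and 0 counts against 38, 32 and 29. Slc12a5, the neuronal chloride exporter KCC2, had 22, 88 and 44 counts against 75, 106 and 115. Slc32a1, the vesicular GABA transporter, had 42, 23 and 0 counts against 49, 27 and 46, and Gabrb2, a GABA-A receptor subunit, had 0, 0 and 16 against 31, 12 and 24. At these depths each of the intervals for Gad2, Slc12a5, Slc32a1 and Gabrb2 included 0 as well as a log2 difference of -1, so such a difference was not detectable. Gabrb2 passed the threshold without MRL/lpr replicate 3, the only MRL/lpr library with a count for it, at an adjusted p of 0.0265 from edgeR.

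The 5 genes of the neuronal nucleus and cytoskeleton all had every MRL/lpr library below every MRL/mpj library, against 19.4% of all genes tested. None of the 5 passed the threshold. Rbfox3, which encodes the neuronal nuclear protein NeuN, had 47, 0 and 42 counts in MRL/lpr and 87, 82 and 73 in MRL/mpj. MRL/lpr replicate 2 was at 0 and the interval was wide, with a log2 fold change of -1.24 (95% interval -3.63 to 1.14, edgeR adjusted p = 0.467). Nefl, the light neurofilament chain, had 23, 92 and 15 counts against 164, 200 and 137. Here MRL/lpr replicate 2 was several times above the other MRL/lpr libraries, and the groups still did not overlap. Nefl had the most negative log2 fold change of the 31 genes, -1.80 (95% interval -3.15 to -0.45), its adjusted p being 0.0659 in edgeR, 0.00947 in DESeq2, 0.0316 with counts divided by 4, and 0.00154 without MRL/lpr replicate 2.

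Nefm, the medium neurofilament chain, had 27, 53 and 35 counts against 64, 82 and 89 (log2 fold change -0.85, SE 0.39). Nefl and Nefm lie on opposite strands of chromosome 14 and share 1108 exon bases, 32.8% of Nefl and 19.2% of Nefm, so their counts may not be independent. Tubb3, the neuronal beta-tubulin, had 31, 46 and 25 counts against 74, 81 and 64 (log2 fold change -0.94, SE 0.38, edgeR adjusted p = 0.124). Map2, the dendritic microtubule protein, had 175, 207 and 173 counts against 233, 336 and 365 (log2 fold change -0.58, SE 0.22, edgeR adjusted p = 0.101). Map2 passed with scaling by library size only, at an adjusted p of 0.0488, and without MRL/mpj replicate 1, at 0.0479.

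Summed over the list, the level was 200, 209 and 205 CPM in the MRL/lpr libraries and 231, 239 and 244 CPM in the MRL/mpj libraries, a log2 ratio of the means of -0.22. The groups did not overlap. Vamp2 and Dlg4 alone made 47% to 63.6% of the members' counts in a library. Without them, a split chosen after the values were seen, the sums were 80.7, 76.1 and 88.3 CPM against 122, 117 and 129 CPM, a log2 ratio of -0.59. Vamp2 and Dlg4 thus differed little between the strains, and the sum of the others was lower in every MRL/lpr library. The called genes had mean levels of 2.57 to 20.6 CPM in MRL/mpj, and 13 of the 24 genes not called were under 2 CPM there, where none of the called genes was. Of the 24, 15 had intervals that included a log2 fold change of -1, and 7 (Syp, Stx1a, Vamp2, Rab3a, Dlg4, Shank2 and Camk2b) had intervals that lay between -1 and 1.

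A list of 90 other neuronal genes was read in the same way, and 85 had enough counts. Of these, 10 were lower and 1 was higher by the same edgeR test, 4 of the 10 were past the fold minimum, against 9.06%, 11.1% and 3.66% of all genes tested. Of the 85, 24 had every MRL/lpr library below every MRL/mpj library and 4 had them above. Over all genes tested these shares were 19.4% and 19.6%. The median log2 fold change was -0.44. Nefh, the heavy neurofilament chain, had 12, 12 and 15 counts in MRL/lpr and 68, 59 and 77 in MRL/mpj (log2 fold change -2.19, SE 0.45, adjusted p = 0.00734). Elavl4, a neuronal RNA-binding protein, had 38, 59 and 27 counts against 118, 153 and 144 (log2 fold change -1.58, SE 0.34, adjusted p = 0.00985). Both genes were separated widely between the strains. Uchl1, an abundant neuronal ubiquitin hydrolase, had 128, 72 and 59 against 177, 208 and 228 (log2 fold change -1.08, adjusted p = 0.0335). Slc12a2, the chloride importer NKCC1, which is also abundant in the choroid plexus, fell from 271 ± 6.91 CPM (SD, n = 3) in MRL/mpj to 164 ± 4.63 CPM (SD, n = 3) in MRL/lpr (log2 fold change -0.72, adjusted p = 3.46e-05). The gene that rose was Nlgn2, the adhesion molecule of inhibitory synapses, at 28.6 ± 1.07 CPM against 18.1 ± 0.877 CPM (SD, n = 3 each), with a log2 fold change of 0.66 (adjusted p = 0.000971).

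By role, 4 of 20 other release genes and 5 of 15 tested genes of the nucleus, cytoskeleton and RNA binding were lower. So was 1 of 8 genes of GABA receptors and transport, and 1 of 11 tested adhesion and scaffold genes was higher. Over all genes tested, edgeR called 9.06% lower and 11.1% higher. None of the 4 calcium/calmodulin kinases, 7 glutamate receptor genes, 9 channels and pumps, 7 neuropeptide genes and 4 long noncoding RNAs tested was called by edgeR. At an unadjusted p-value under 0.05, 1 channel or pump gene was higher, 1 neuropeptide gene was lower, and none of the kinases, glutamate receptor genes and long noncoding RNAs passed. The count of 10 was 5 without MRL/mpj replicate 1, 6 without MRL/mpj replicate 2 and 6 without MRL/mpj replicate 3; scaled by library size alone it was 17. The count of 1 was 2 without MRL/lpr replicate 3.

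**Figure D4:**
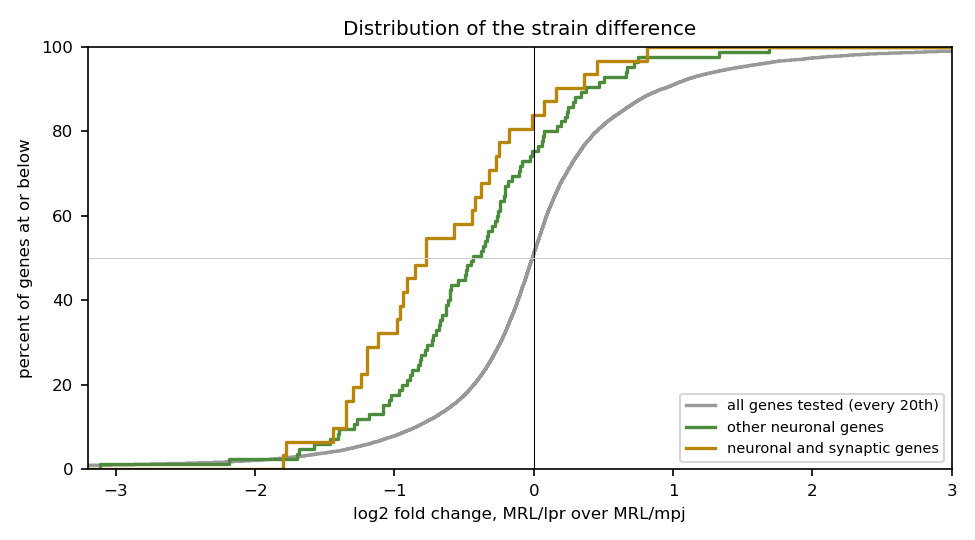
Percent of genes at or below each log2 fold change, MRL/lpr over MRL/mpj, for the 31 neuronal and synaptic genes (gold), the 85 tested genes of the list of other neuronal genes (green) and every 20th of all genes tested, ordered by value (grey). The medians are -0.77, -0.44 and, over all genes tested, -0.01, and both neuronal curves lie left of the grey curve over most of their range.

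Markers of other cell types were read as well, and 7 of 12 lists of cell type markers had summed levels that were lower in every MRL/lpr library than in every MRL/mpj library. Counts of called markers stand against 9.06% lower and 11.1% higher over all genes tested by edgeR. Markers of ependyma and choroid plexus, the cells that line the ventricles and make cerebrospinal fluid, summed to 368 to 382 CPM in MRL/lpr and 1114 to 1189 CPM in MRL/mpj, and 7 of 10 were lower. Their most abundant gene, Ttr, the transthyretin secreted by the choroid plexus, was at 302 ± 6.68 CPM against 942 ± 40.3 CPM (SD, n = 3 each, log2 fold change -1.64, edgeR adjusted p = 3.21e-07), and Clic6 had a log2 fold change of -1.45. Markers of oligodendrocyte precursors summed to 14.3 to 20.1 CPM against 29 to 30.8 CPM, with 3 of 7 lower and 1 higher, and their most abundant genes, Cspg4 and Gpr17, had log2 fold changes of -1.05 and -1.35. Astrocyte markers summed to 118 to 164 CPM against 198 to 205 CPM, with 1 of 8 lower. It was Slc1a3, at a log2 fold change of -0.98, while Gfap was not called. Slc1a3, at 66.1 CPM against 130 CPM, carried nearly all of the difference of the sums. Of the 8, 4 had every MRL/lpr library below every MRL/mpj library and 2, Gfap among them, above. Over all genes tested these shares were 19.4% and 19.6%. Oligodendrocyte markers summed to 131 to 153 CPM against 167 to 199 CPM, with 2 of 8 lower, and neither Cnp nor Mag, the most abundant, was called. The part of these cell types in the differences of the neuronal genes was not tested.

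Among lists for classes of neurons, striatal markers summed to 13.4 to 16.6 CPM in MRL/lpr and 24.9 to 28.5 CPM in MRL/mpj. Of 5 striatal markers tested, 1 was lower, Ppp1r1b (DARPP-32), at a log2 fold change of -1.29, while Adora2a was not called. Ppp1r1b, at 8.77 CPM in MRL/lpr and 21.4 CPM in MRL/mpj, carried the difference of the sums. The log2 fold change was above 0 in 3 of the 5, with a median of 0.23. Every MRL/lpr library lay above every MRL/mpj library in 2 and below in 1, against 19.6% and 19.4% of all genes tested. Interneuron markers summed to 1.51 to 2.81 CPM against 3.27 to 3.86 CPM, with 0 of 5 called by edgeR and 1 lower at an unadjusted p-value under 0.05. That gene was Lhx6 (adjusted p = 0.0637), and Pvalb was at 0.258 and 0.461 CPM. Markers of cortical and hippocampal excitatory neurons overlapped, at 6.76 to 10.3 CPM against 8.38 to 15.2 CPM, with 0 of 4 called by edgeR and 1 lower at an unadjusted p-value under 0.05. Nrgn was at 4.04 and 7.06 CPM. Cerebellar granule neuron markers summed to 12.7 to 15.3 CPM against 19.7 to 23.5 CPM. Of that list Zic1 and Zic2 were lower and Cbln1 higher, while the defining markers Gabra6, Neurod1 and Cbln3 had at most 16 counts in any library and were at 0 in 4, 4 and 3 libraries. For these lists too, edgeR called 9.06% of all genes tested lower and 11.1% higher. At an unadjusted p-value under 0.05, 15.5% of all genes tested were lower.

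Other lists ran the opposite way or overlapped. Their counts of called genes stand against 9.06% lower and 11.1% higher over all genes tested. Immature neuron markers summed to 360 to 432 CPM in MRL/lpr and 306 to 320 CPM in MRL/mpj, nearly all of it Sox4, which was higher at a log2 fold change of 0.41 and is also made outside neurons, followed by Cd24a, which was not called. Dlx5 of that list was at 0 in every library. Endothelial and pericyte markers summed to 1817 to 2032 CPM against 1695 to 1744 CPM, with Cldn5 not called and Ly6c1 higher, among 2 higher and 1 lower of 8. Erythrocyte markers summed to 685 to 1134 CPM against 610 to 674 CPM, with 1 of 5 higher, and neither Hba-a1 nor Hbb-bs was called. Microglial markers summed to 25527 to 29312 CPM against 28738 to 29654 CPM, with 2 of 12 lower. C1qa was not called.

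**Figure D5:**
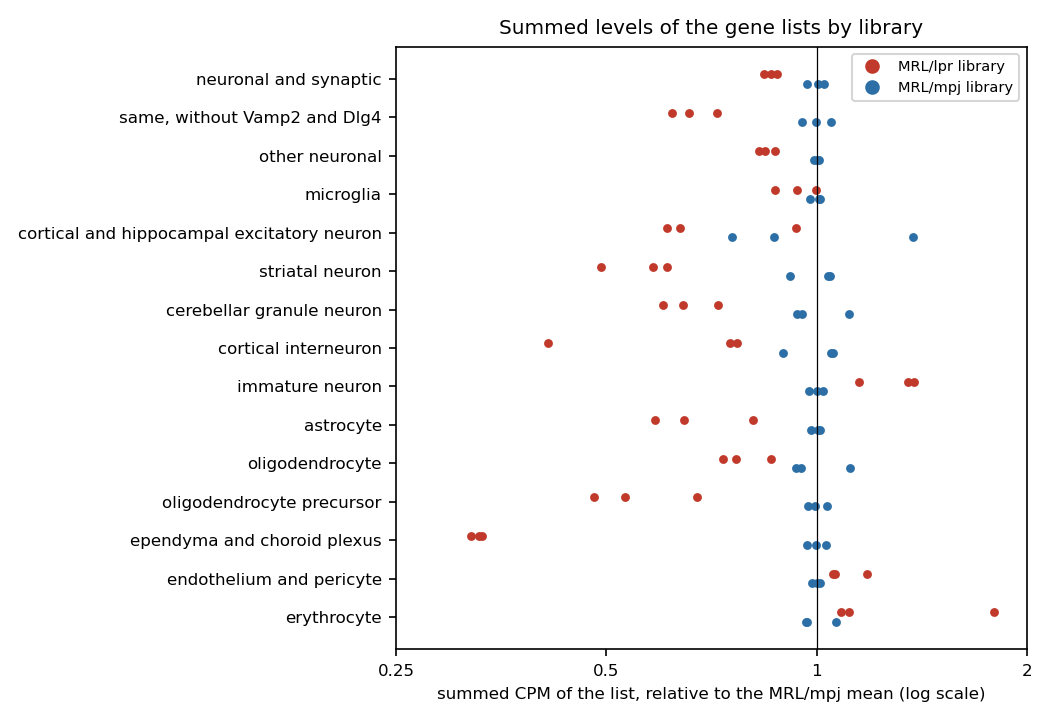
Summed CPM of each gene list in each MRL/lpr (red) and MRL/mpj (blue) library, divided by the mean of the MRL/mpj libraries (log axis, so that 1 is the MRL/mpj mean). The neuronal and synaptic genes lie left of 1 in every MRL/lpr library, as do oligodendrocyte precursor, astrocyte, striatal and, farthest left, ependymal and choroid plexus markers, while the microglial values of the strains overlap. The striatal and astrocyte differences lie mostly in Ppp1r1b and Slc1a3.

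The promoters of the 31 genes, called or not, were read where an entry existed for the RE1 element, the site of the repressor REST, which keeps many neuronal genes silent outside neurons. The element and its letters were chosen after the values of the genes were seen. RefSeq promoters on GRCm38.p6, with 250 bases before and 50 after a start site, were found for 22 of 31 genes, as 35 promoters. The entries did not include Snap25, Vamp2, Shank2, Camk2a, Gria1, Grin2a, Grin2b, Nefl and Nefm. The full search, TTCAGCACC followed after 2 bases by GGACAG on either strand, matched 0 of the 35 promoters and 4 of 32851 promoters in all, or 0.0122%. Searched second and alone, TTCAGCACC matched 2 of the 35 promoters, those of Syn1 and Nlgn1, and 122 of all promoters, or 0.371%. Syn1 was among the called genes and Nlgn1 was not. A match is only a match of letters, and no match says nothing about binding by the factor. The 250 bases before the RefSeq start site are shown for the called genes with a promoter entry near the start of the gene given above, in the direction of transcription, each from the minus strand. For Syn1 and Syt1 the RefSeq start site lies inside the gene span given above, so part of each sequence shown for them does too. Dlg2 is not shown, because its 3 entries lie inside the gene, far from that start. They are Syt1 (chr10:109010976-109011225), Syn1 (chrX:20920919-20921168), Gria2 (chr3:80802836-80803085) and Grin1 (chr2:25319188-25319437). Capitals mark TTCAGCACC, which lies 232 to 224 bases before the RefSeq start site of Syn1 and is absent from the other sequences shown.
Syt1: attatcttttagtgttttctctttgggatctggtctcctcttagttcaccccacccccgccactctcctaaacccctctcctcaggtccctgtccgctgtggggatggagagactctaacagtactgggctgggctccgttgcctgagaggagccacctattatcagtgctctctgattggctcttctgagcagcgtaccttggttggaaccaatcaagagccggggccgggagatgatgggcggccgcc
Syn1: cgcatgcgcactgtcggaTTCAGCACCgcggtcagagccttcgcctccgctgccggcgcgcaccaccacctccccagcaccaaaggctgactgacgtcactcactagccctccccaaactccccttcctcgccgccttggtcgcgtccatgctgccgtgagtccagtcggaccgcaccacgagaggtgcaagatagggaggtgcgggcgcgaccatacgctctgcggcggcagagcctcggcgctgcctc
Gria2: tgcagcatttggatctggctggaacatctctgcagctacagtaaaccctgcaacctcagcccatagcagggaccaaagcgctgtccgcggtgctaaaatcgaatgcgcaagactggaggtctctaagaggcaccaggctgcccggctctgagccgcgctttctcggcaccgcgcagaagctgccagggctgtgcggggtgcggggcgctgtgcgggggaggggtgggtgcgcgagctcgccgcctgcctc
Grin1: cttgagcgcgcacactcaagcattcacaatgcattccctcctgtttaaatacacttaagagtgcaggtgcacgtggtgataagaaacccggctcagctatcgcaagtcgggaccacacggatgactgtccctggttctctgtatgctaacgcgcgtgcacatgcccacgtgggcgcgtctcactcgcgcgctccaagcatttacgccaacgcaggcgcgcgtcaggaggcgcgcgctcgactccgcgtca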

How the data were processed

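RNA was sequenced from CD11b-selected brain cells of 3 MRL/lpr and 3 MRL/mpj preparations. The labels describe removal of ribosomal RNA and a stranded total RNA kit, and the methods describe purified mRNA. The authors deposited whole-number read counts per Ensembl gene without normalization, and FPKM per library, which divides counts by gene length and depth. The submitters' processing notes name cutadapt 1.9.3, HISAT2 2.0.4, Cuffdiff 2.2.1, Cufflinks and GRCm38. The counting tool, annotation and use of strand are not given in the sources used here.

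Groups were taken from the sample titles. GENCODE M21 (GRCm38) gave symbols, positions and exons for 55141 of 55401 identifiers, and promoter sequences came from RefSeq (GRCm38.p6). Genes were kept by filterByExpr (minimum count 10, minimum total 15), scaled by TMM and tested with edgeR 4.0.16 in R 4.3.3 (robust quasi-likelihood test, no covariate), with Benjamini-Hochberg adjustment over the 19554 genes tested and a threshold of 0.05. The fold minimum was an absolute log2 fold change of 1. The common biological coefficient of variation was 0.26. Intervals are 95% intervals of the fit, and a count of 0 was taken to allow up to 3 counts. That floor and the counts carry counting error only, since no molecular identifiers are described. With 3 libraries against 3, the precision is limited by their number.

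Alternatives were DESeq2 1.42.0 (the tool named in the methods), RLE size factors, library size only, no filter on low counts, a minimum count of 40, counts divided by 4, the replicate number as a block, and each library left out. The sum without Vamp2 and Dlg4 was added after the values were seen. The edgeR steps were tested on simulated data. The genes and the lists were chosen with earlier results of these data known. Named are all 31 genes, the 5 largest decreases and increases of the list of other neuronal genes that were called without overlap, and the 2 markers of each list with the highest mean FPKM. Some genes that this rule covers are not reported here. Other genes were named after their values were seen, among them Gabra6, Neurod1, Cbln3, Cbln1 and Dlx5.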

Additional observations from a re-analysis of the deposited data

How the results depend on the processing

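No member was called higher under any alternative. The count of members called lower was 7 with DESeq2, with RLE size factors and at a minimum count of 40, 10 with library size only, 5 without a filter, and 8 with counts divided by 4. With library size only, which moved the median log2 fold change of all genes tested from -0.01 to -0.13, the count past the fold minimum was 8, that of other neuronal genes lower was 17, and the summed level had a log2 ratio of -0.34. That ratio was -0.59 without Vamp2 and Dlg4. Leaving out each library in turn gave 2 to 5 members lower, 2 to 5 past the fold minimum, 5 to 9 other neuronal genes lower and 1 to 2 higher. Deviations of same-numbered libraries had correlations of -0.06, -0.03 and -0.08 over all genes tested, which gave no sign of pairing by replicate number. Many of these genes are low, so such correlations cannot show whether libraries were prepared together. With the replicate number as a block, 5 members were lower, 5 were past the fold minimum, 0 were higher, and 7 other neuronal genes were lower and 1 higher. With 1 library left out, log2 fold changes turned sign for Dlg4 (range -0.066 to 0.069, and 0.021 without MRL/mpj replicate 3), Camk2b (-0.31 to 0.024), Grin2a (-1.39 to 0.067), Grin2b (-0.57 to 0.081) and Gria1 (-0.36 to 0.46, and -0.024 without MRL/mpj replicate 3), and for Gria1 also with library size only (-0.063) and with the block (-0.083). Of 391 log2 fold changes of single members under the alternatives, 343 kept their sign and their side of the threshold, 30 lost a call, 9 gained one and 9 changed sign. Nlgn1, Grin2a, Grin2b, Gabrb2, Gad1 and Gad2 were not tested at a minimum count of 40 or with counts divided by 4. The cause of these changes was not tested.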
